A study of Mus musculus with 4 samples.

Results

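Genes of respiratory complex I were examined in mRNA-seq data of tibialis anterior (TA) muscle, which lies along the shin and lifts the foot, from C57BL/6 mice. The old group was 20 months of age (Old 1 and Old 2) and the young group was 3 months of age (Young 1 and Young 2), so each age had 2 samples, and no genotype or treatment other than age separated them in the labels. All gene labels with a symbol beginning Nduf and a value in all 4 samples were taken, and rows of the same symbol were summed. This gave 38 genes of 20340 gene labels, of which 33 were counted as complex I subunits and 5 were assembly factors (symbols beginning Ndufaf). By their symbols, the 33 include Ndufa4, now also described as a subunit of complex IV, and its paralog Ndufa4l2. The chromosomes were listed in text order and the values stopped in chromosome 7 or 8, depending on the sample, so Nduf genes of later chromosomes were not analysed here.

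Complex I, the NADH:ubiquinone oxidoreductase of the inner mitochondrial membrane, passes electrons from NADH to ubiquinone and pumps protons across the membrane. A matrix arm carries the flavin and the iron-sulfur clusters, and a membrane arm carries the proton pumps. The core subunits are conserved from bacteria, and part of them is encoded by the mitochondrial genome. The accessory subunits surround the core, and assembly factors help to build the complex without staying in it. Muscle fibres, the oxidative ones above all, hold many mitochondria and much of this complex.

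The deposited values were FPKM (fragments scaled for transcript length and for the total mapped in that sample), and the number of reads behind them is unknown. The sum of FPKM over loci found in each sample ran from 226747 in Old 2 to 739302 in Young 2, and between 5223 and 9558 of the 20605 loci were listed at 0. For most complex I genes the samples of one age differed mainly by a factor. For the 36 complex I genes other than Ndufs7 and Ndufa4l2, Old 1 was 1.96 times Old 2 at the median (range 1.91 to 2.59), and Young 2 was 1.94 times Young 1 (range 1.82 to 2.49). The SD of these log2 ratios across the 36 genes was 0.09 and 0.08, against 0.33 for Old 1 over Young 2 and 0.30 for Old 2 over Young 1. On the deposited scale, the old and young groups overlapped for all 38 complex I genes. Each sample was therefore divided by a scale factor (1.46, 0.680, 0.689 and 1.47 for Old 1, Old 2, Young 1 and Young 2), and the values below are FPKM after this scaling. After scaling, Old 2 was still above Old 1 for 34 of the 36 genes, and Young 1 was above Young 2 for 34. Over all 10266 genes tested, a factor did not remove the difference. Their summed scaled FPKM was 474600 in Old 1 and 333400 in Old 2, and 364600 in Young 1 and 501300 in Young 2. The paper describes the sequencing experiments of an age as independent, but neither it nor the labels say whether the samples came from separate mice, so the p-values measure only the spread between these samples. If both samples of an age were from 1 library, each age had n = 1 and the tests had no replicate check.

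**Figure D1:**
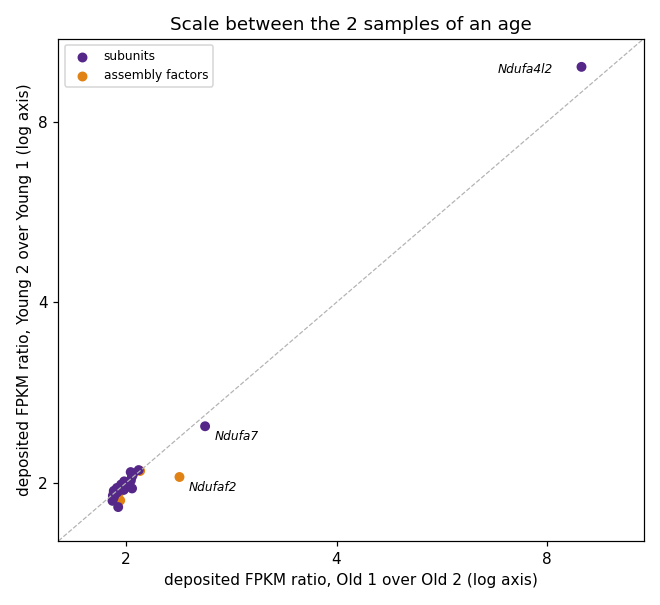
Ratio of the deposited FPKM between the samples of an age for 36 complex I genes, Ndufa4l2 among them, Old 1 over Old 2 on the horizontal and Young 2 over Young 1 on the vertical log axis; each point is a gene and the dashed line marks equal ratios. Most genes sit near a ratio of 2 on both axes, Ndufa7 at 2.59 and 2.49, and Ndufa4l2 at 8.97 and 9.88, while Ndufs7 has no ratio because it is listed at 0 in Old 2 and Young 1.

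In old muscles 7 of 33 complex I subunits were lower past the test (7.94% of all genes tested were) and 1 of 5 assembly factors was higher (5.61% of all genes tested were). By sign alone, the log2 fold change (old over young, of scaled FPKM + 1) was below 0 for 29 of the 31 subunits other than Ndufs7 and Ndufa4l2, whose values could not be compared. The median over all 33 subunits was -0.35, which is 0.784 times the young level. Without Ndufa4 and Ndufa4l2 the median was -0.35 over 31 subunits, with the same 7 lower past the test. Over all 10266 genes tested the median was -0.01, and over the 527 genes with a mean of at least 100 scaled FPKM it was -0.04. At an adjusted p under 0.05 (limma with Benjamini-Hochberg adjustment over all genes tested), 7 subunits were lower in old muscles (21.2% of the subunits), against 14.4% of the genes with a mean of at least 100 scaled FPKM, a level that 31 of 33 subunits reached. None was higher. For the lack of a higher subunit, the count at an unadjusted p under 0.05 was also 0. Of the 5 assembly factors 1 was higher, and their median log2 fold change was 0.07. Both old samples lay below both young samples for 26 subunits and 1 assembly factor, a pattern met by 28.4% of all genes tested. Both lay above for 3 assembly factors and 0 subunits, a pattern met by 27.8%. In bulk muscle, fewer cells of a type and less RNA per cell cannot be told apart.

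The calls depended on the scaling, the filter and the trend of limma. No complex I gene passed the threshold with the values as deposited, with quantile normalization, without the filter on low values, or with limma without its trend. Among all genes, 31, 307 and 284 of 10266 passed as deposited, with quantile normalization and without trend, and 316 of 15823 without the filter. With a sample left out, 1 age had only 1 sample and no spread of its own, so effect sizes are read here and not calls. The median log2 fold change of the subunits was then -0.31 without Old 1, -0.38 without Old 2, -0.33 without Young 1 and -0.41 without Young 2. The median of the subunits stayed between -0.41 and -0.30 under all of these settings. The filter and the trend do not enter the fold change of a gene, so those settings could not move it.

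**Figure D2:**
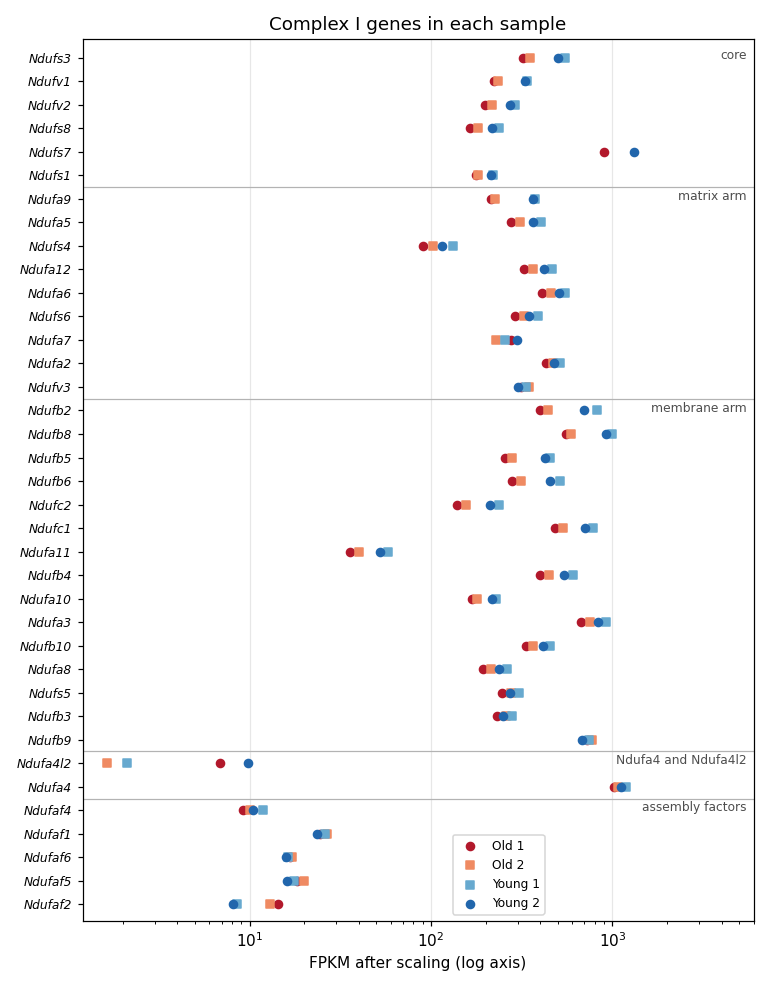
FPKM after scaling of 37 complex I genes (rows, grouped by place in the complex) in each of the 4 samples, on a log axis; red and orange points are Old 1 and Old 2, light and dark blue points are Young 1 and Young 2. The old points lie to the left of the young points for 25 of the 32 subunits drawn and for 1 of 5 assembly factors, and the values of 0 of Ndufs7 in Old 2 and Young 1 are not drawn.

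The core subunits with a value are encoded in the nucleus. Of these 7, Ndufs7 could not be compared, and both old samples lay below both young samples for the other 6, with a median log2 fold change of -0.39 over the 7. Ndufs3, a subunit next to the quinone site, had 322 and 350 scaled FPKM in Old 1 and Old 2 and 549 and 501 in Young 1 and Young 2. The groups did not overlap, and the log2 fold change was -0.64 ± 0.09 (SE; limma adjusted p = 0.0410). Ndufv1, which binds NADH and the flavin, had 221 and 233 in the old and 340 and 328 in the young samples, and fell by 0.55 ± 0.07 on the log2 scale (limma adjusted p = 0.0343). Its partner in the same NADH-oxidising part, Ndufv2, had 199 and 216 in the old and 289 and 272 in the young samples. Its groups did not overlap either, with a log2 fold change of -0.43 ± 0.08 that missed the threshold (limma adjusted p = 0.0574).

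Other core subunits had log2 fold changes closer to 0. Ndufs8, a carrier of iron-sulfur clusters, had 164 and 182 scaled FPKM in the old and 238 and 216 in the young samples. Ndufs1, the largest subunit and a carrier of iron-sulfur clusters, had 177 and 183 in the old and 219 and 215 in the young samples. The groups overlapped in neither gene, and their log2 fold changes of -0.39 and -0.27 had limma adjusted p-values of 0.0893 and 0.0760. Ndufs1 shares its locus with another gene label, Gm11602.

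Ndufs7, the core subunit whose iron-sulfur cluster hands electrons to ubiquinone, could not be compared. It had 899 scaled FPKM in Old 1 and 1317 in Young 2, and was listed at 0 in Old 2 and Young 1. Its locus (mm10, chr10:79697304-80369637) was shared by 46 rows, and all 46 were listed at 0 in Old 2 and Young 1, against 3 in Old 1 and 1 in Young 2. The zeros covered the whole merged locus, and the SE of its log2 fold change was 5.48. Without Ndufs7 and Ndufa4l2 the median of the remaining 31 subunits was also -0.35.

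In the matrix arm, 8 of 9 accessory subunits had a log2 fold change below 0, with a median of -0.29. Ndufa9, a subunit at the junction of both arms that holds a bound nucleotide, had 213 and 226 scaled FPKM in the old and 372 and 363 in the young samples. Its old samples were 40.3% below the young samples, at a log2 fold change of -0.74 ± 0.07 (limma adjusted p = 0.0274). It was the only matrix arm accessory subunit past the threshold. Ndufa5, Ndufs4, Ndufa12, Ndufa6 and Ndufs6 had separate groups too, with log2 fold changes from -0.40 to -0.26 and limma adjusted p-values from 0.0899 to 0.197. Loss of Ndufs4 is a known cause of Leigh syndrome and is used as its mouse model.

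Ndufa2, Ndufa7 and Ndufv3 were closer to 0. Ndufa2 had a log2 fold change of -0.13 and Ndufa7 of -0.14, and both share their locus with another gene. Ndufa7 sits with the ribosomal protein gene Rps28, and its groups overlapped. Ndufv3, a subunit of the NADH-oxidising part, had 313 and 348 scaled FPKM in the old and 336 and 302 in the young samples. These groups overlapped as well, and the log2 fold change was 0.05 ± 0.10.

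The membrane arm held the lowest values. Of its 21 accessory subunits on the list, 15 had a value, 14 of them had a log2 fold change below 0, and the median was -0.43. Ndufb2 had 401 and 443 scaled FPKM in the old and 820 and 700 in the young samples, a fall of 44.4% (log2 fold change -0.85 ± 0.12, limma adjusted p = 0.0410). Ndufb8, whose protein is commonly used as a marker of assembled complex I, had 552 and 590 in the old and 993 and 922 in the young samples (log2 fold change -0.75 ± 0.08, limma adjusted p = 0.0311). Both genes had their highest old sample well below their lowest young sample.

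Ndufb5 had 255 and 279 scaled FPKM in the old and 456 and 424 in the young samples, with a log2 fold change of -0.72 ± 0.09 (limma adjusted p = 0.0339). Ndufb6 had 281 and 315 in the old and 515 and 456 in the young samples, with a log2 fold change of -0.70 ± 0.11 (limma adjusted p = 0.0459). Ndufb2, Ndufb5, Ndufb6 and Ndufb8 all belong to the distal end of the membrane arm. Ndufb6 was the called gene nearest to the threshold, and Ndufc2 (log2 fold change -0.60, limma adjusted p = 0.0513) was the nearest outside it. In all, 10 complex I genes had an adjusted p from 0.05 to 0.1.

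Not all genes of the distal end had such values. Ndufb9, of the same end, had 727 and 768 scaled FPKM in the old and 739 and 678 in the young samples, with overlapping groups and a log2 fold change of 0.08 ± 0.09. Ndufb3 had a log2 fold change of -0.11, Ndufb10 of -0.30 and Ndufb4 of -0.43. Of the subunits nearer to the matrix arm, Ndufc1 and Ndufa11 were at -0.55 and -0.54, and Ndufa10, Ndufa3 and Ndufa8 between -0.35 and -0.29. Ndufs5 was at -0.14 with overlapping groups.

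Ndufa4, now also described as a subunit of complex IV, had the highest level of all, with 1019 and 1080 scaled FPKM in the old and 1184 and 1119 in the young samples. Its groups did not overlap, but its log2 fold change was only -0.13 ± 0.08 (limma adjusted p = 0.364). Its paralog Ndufa4l2, known to be induced by hypoxia, had 6.85 and 1.64 in the old and 2.11 and 9.78 in the young samples. These groups overlapped, and the gene shares its locus with Shmt2.

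**Figure D3:**
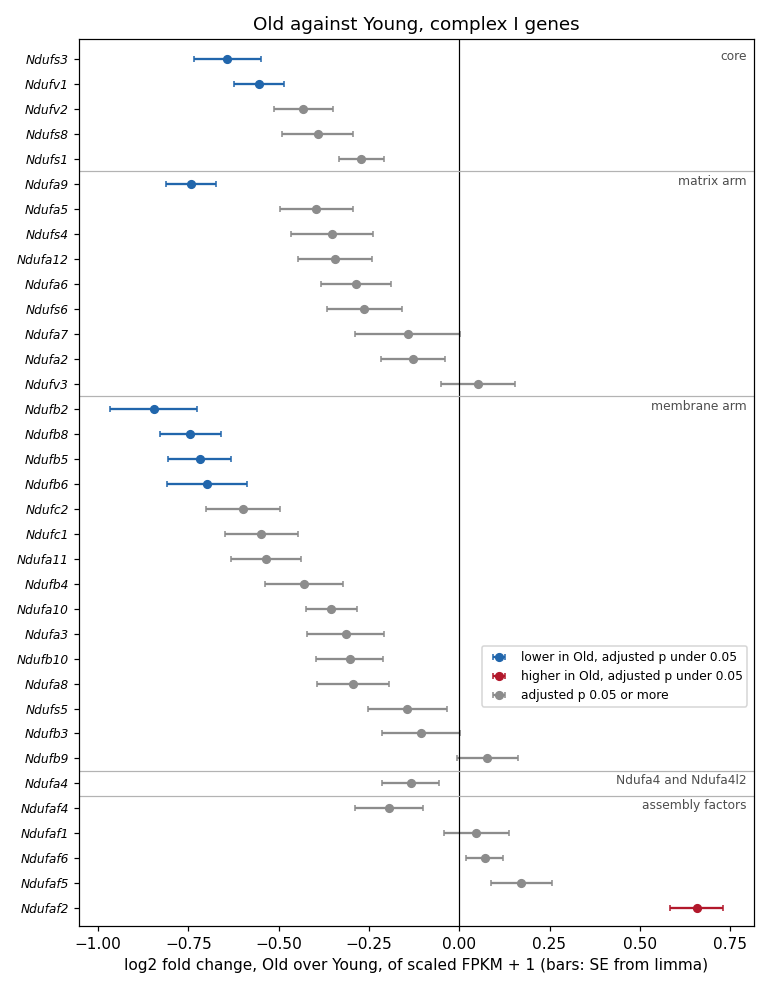
Log2 fold change of old over young for 35 complex I genes (rows, grouped by place in the complex), on log2(scaled FPKM + 1); points are the limma estimate and bars the SE from 2 samples per age. The 7 blue genes are lower and 1 red gene, Ndufaf2, is higher at an adjusted p under 0.05. Among the genes not drawn are Ndufs7, listed at 0 in 2 samples, and Ndufa4l2, with its wide spread between samples of an age.

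The assembly factors were expressed at a far lower level, with 8.12 to 26.9 scaled FPKM in every sample, and the fold of such genes is understated on this scale. Ndufaf2, a paralog of the subunit Ndufa12 that acts late in assembly of the NADH-oxidising part, had 14.4 and 13.0 in the old and 8.48 and 8.12 in the young samples. Both old samples lay above both young samples, at a log2 fold change of 0.66 ± 0.07 (limma adjusted p = 0.0307). Ndufa12 itself had 328 and 366 in the old and 463 and 418 in the young samples, with a log2 fold change of -0.34 ± 0.10 (limma adjusted p = 0.120).

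The other assembly factors had log2 fold changes closer to 0. Ndufaf5, which modifies Ndufs7, had 18.2 and 20.0 scaled FPKM in the old and 17.6 and 16.04 in the young samples. Ndufaf6, needed early for the mitochondrially encoded part, had 16.7 and 17.1 in the old and 16.2 and 15.9 in the young samples. In both genes the old samples lay above the young samples by a small margin, at log2 fold changes of 0.17 ± 0.08 and 0.07 ± 0.05 that missed the threshold. Ndufaf1, a part of the intermediate assembly complex, had 24.4 and 26.9 in the old and 26.0 and 23.5 in the young samples, and its groups overlapped. Ndufaf4, which works early in assembly, had 9.15 and 10.04 in the old and 11.9 and 10.4 in the young samples. It was the 1 assembly factor with old below young, at a log2 fold change of -0.19 ± 0.09 (limma adjusted p = 0.272). Of 9 other complex I assembly genes on the list 5 had a value, none passed the threshold, 2 had an unadjusted p under 0.05, and their log2 fold changes ran from -0.52 (Nubpl) to 0.00 (Tmem126b) with a median of -0.18.

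The other respiratory complexes also had medians below 0. The median log2 fold change was -0.29 over 5 genes of complex II, -0.45 over 11 of complex III, -0.38 over 15 of complex IV and -0.34 over 15 of ATP synthase. The number of genes lower at the threshold was 2, 5, 5 and 4 in the same order (40.0%, 45.5%, 33.3% and 26.7% of those tested). Of all genes tested 7.94% were lower, and of those with a mean of at least 100 scaled FPKM 14.4%. In complex II, Sdhc and Sdhb were lower (log2 fold changes -0.78 and -0.41). Cyc1 was the lowest of complex III (-1.10), Cox6a1 of complex IV (-0.99) and Atp5g1 of ATP synthase (-1.20). One gene of these lists was higher, Atpif1, the inhibitor of ATP synthase, with a log2 fold change of 0.59 ± 0.05 (limma adjusted p = 0.0258).

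**Figure D4:**
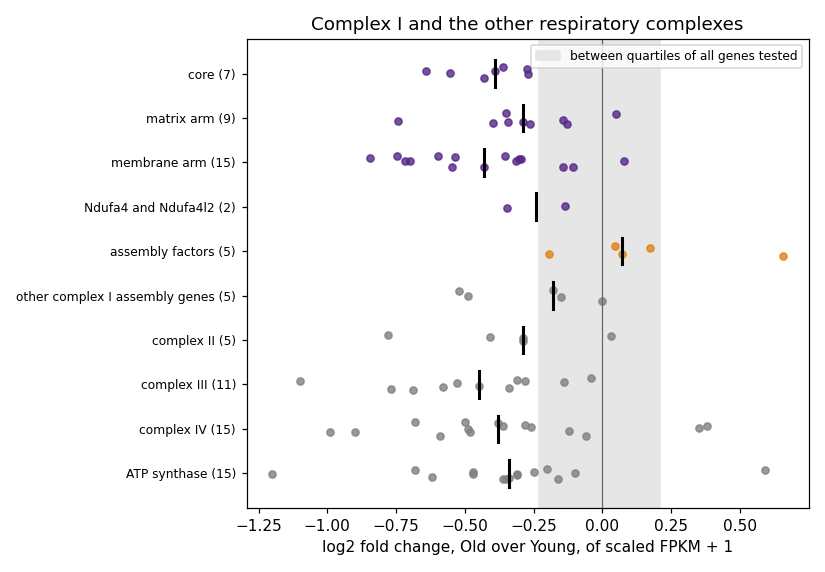
Log2 fold change of old over young on log2(scaled FPKM + 1) for the groups of complex I genes (purple and orange) and for other respiratory chain lists (grey), with the number of genes in brackets; points are genes, black bars are medians and the shaded band is the span between the quartiles of all genes tested. The medians of the core, matrix arm and membrane arm groups lie between -0.43 and -0.29. That of Ndufa4 and Ndufa4l2 lies at -0.24 and that of the assembly factors at 0.07.

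Markers of fibre and cell types were read beside these results. All 6 markers of slow fibres were higher in old muscles, and their summed level was 877 and 679 scaled FPKM in the old and 52.2 and 60.5 in the young samples. Of the 7 markers of fast fibres, Ckm and Myh4 were listed at 0 in all 4 samples, so they could not be compared. Tnnt3 was called lower, with 0 in both old samples and 6483 and 5107 scaled FPKM in Young 1 and Young 2. Its log2 fold change of -12.49 (limma adjusted p = 0.00755) rests on these zeros. The other 4 did not pass the threshold. The summed level of the 7 was 44430 and 12340 in Old 1 and Old 2 and 21060 and 36940 in Young 1 and Young 2. Of the skeletal muscle markers with a value, 1 of 4 was lower (Actn2). Ttn had 0 in both old samples and 20.5 and 203 scaled FPKM in the young samples without passing the threshold (limma adjusted p = 0.0661), and Neb had 0 in Old 2 and Young 1. Fibroblast markers were lower for 3 of 5 genes, Col1a1, Col1a2 and Col3a1 (summed level of the 5 114 and 127 against 182 and 168). The other 2, Dcn and Pdgfra, had both old samples above both young samples, at log2 fold changes of 0.30 and 0.16 that missed the threshold. Schwann cell markers were lower for both genes tested (24.02 and 24.8 against 40.2 and 37.9). Endothelial markers were lower for 1 of 5 (46.4 and 50.2 against 60.6 and 54.9), and 0 of 4 adipocyte markers tested passed (304 and 245 against 266 and 339). Leukocyte and cardiac muscle markers stayed below 3 scaled FPKM in sum, with Nppa and Tnni3 at 0 in Old 2 and Young 1, and erythroid markers had no value. The part of these markers in the complex I values was not tested.

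The complex I transcripts are short, with a median mRNA length of 772.5 bases (GENCODE) against 2151 over 8033 genes tested. Across all genes with a length, the median log2 fold change was -0.01 below 1000 bases and 0.01 from 4000 bases on. Among the 31 subunits with values above 0 and without Ndufa4l2, the log2 fold change had a Pearson r of 0.05 (Spearman rho -0.02) with the level and of -0.42 (-0.35) with the mRNA length. These are descriptions across genes of the same 4 samples, and genes are not independent replicates.

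The promoters of the genes were searched for motifs of factors known to act on genes of the respiratory chain, in RefSeq windows of 250 bases before to 50 bases after the start (GRCm38.p6). Windows were found for 32 of 38 genes, and both strands were searched. The YY1 motif AAGATGGC was present for 7 of the 32 genes with a window (21.9%), against 5.46% of 6562 tested genes and 3.19% of all 27025 gene symbols with a window. It was present for 7 of 28 subunits and 0 of 4 assembly factors, and 4 assembly factors are too few for a comparison. All 7 matches were on the sense strand, began 23 to 39 bases after the start and overlapped an annotated start codon. Each match follows with the motif in capitals, since these genes include both called and uncalled subunits.
Ndufa9 (chr6:126849097-126849126, minus strand): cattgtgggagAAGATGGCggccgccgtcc
Ndufb8 (chr19:44555393-44555422, minus strand): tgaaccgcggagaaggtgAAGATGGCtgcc
Ndufc1 (chr3:51408915-51408944, minus strand): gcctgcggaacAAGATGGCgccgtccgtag
Ndufs4 (chr13:114388045-114388074, minus strand): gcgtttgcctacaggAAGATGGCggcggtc
Ndufa3 (chr7:3617384-3617413, plus strand): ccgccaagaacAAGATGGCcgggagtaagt
Ndufs7 (chr10:80249462-80249491, plus strand): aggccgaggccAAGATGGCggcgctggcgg
Ndufs6 (chr13:73328433-73328462, minus strand): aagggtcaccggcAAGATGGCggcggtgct

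The log2 fold changes of these 7 genes ran from -0.75 (Ndufb8) to -0.26 (Ndufs6), and Ndufa9 and Ndufb8 were the called ones. The NRF1 motif CGCATGCG was present for 4 genes (12.5%, against 4.57% of tested genes), Ndufa8, Ndufa11, Ndufaf4 and Ndufaf5, none of which passed the threshold. The ERR motif AAGGTCA was present for 3 genes (9.38% against 3.93%), Ndufb2, Ndufb4 and Ndufs5. The Ets motif CCGGAAG was present for 4 genes (12.5% against 20.2%), among them the called genes Ndufs3 and Ndufb6. Windows of Ndufa11 (NRF1), Ndufaf5 (NRF1), Ndufb2 (ERR) and Ndufs3 (Ets) show these motifs in genes with log2 fold changes of -0.54, 0.17, -0.85 and -0.64.
Ndufa11 (chr17:56717692-56717721, plus strand): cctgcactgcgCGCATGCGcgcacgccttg
Ndufaf5 (chr2:140170652-140170681, plus strand): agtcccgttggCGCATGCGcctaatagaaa
Ndufb2 (chr6:39592373-39592402, plus strand): ggagcagcagtAAGGTCAgccaagagcacc
Ndufs3 (chr2:90904730-90904759, minus strand): cccgcgtccgcCCGGAAGaagagtcactgc
The letters of the motifs were chosen after matches of longer and shorter forms had been seen, and a match is a description of the sequence, not a site of binding.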

How the data were processed

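mRNA-seq was performed on TA muscle, with 2 samples per age. Reads were trimmed and cleared of PCR duplicates by the authors, who mapped them to mm10 with TopHat2 and RefSeq gene models and ran Cufflinks on each sample, and the deposited unit is FPKM for each locus; the notes of the submitters list TopHat2 2.0.10 and Cuffdiff 2.1.1. The paper names a stranded kit and the labels do not, so reads of overlapping genes may not be told apart. Depth is unknown, since FPKM holds no counts, and no counting interval is given. The 1 incomplete last line of each sample was left out. Groups and replicate numbers came from the labels.

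Values were scaled by the median of their ratios to the geometric mean, and log2(FPKM + 1) was fitted with limma 3.58.1 in R 4.3.3 (empirical Bayes with a trend, two-sided, 3.4 degrees of freedom, Benjamini-Hochberg adjustment) over the 10266 genes with at least 1 deposited FPKM in at least 2 samples, among them all 38 complex I genes. On simulated data with a factor between samples like that seen, limma recovered 181 of 181 genes changed by a log2 of 1, with 4 false calls, after scaling and 0 of 181 without it (9656 genes, Old against Young). The simulated noise had an SD of 0.1 on the log2 scale and was independent between samples. It held no difference shared between the ages, and every complex I change was below a log2 of 1 in size. The recovery thus gives no power or rate of false calls for the complex I genes. The correlation of deviations between samples of the same number was -0.903 over 10266 genes, so the numbers were not used as pairs. For Old 1 with Young 2 it was 0.903, so the samples of an age differed in a way shared between the ages. The main fit has no block and counts this shared difference as error. Its SEs and p-values therefore do not measure replicate noise alone. Alternatives were other scalings, pseudocount, filters, locus rules, blocks, limma without trend, and leaving out each sample.

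Values in every sample are given for core subunits, the 5 lowest and 5 highest log2 fold changes and all assembly factors; genes of other lists with over 10 members are named only at their lowest and highest values, and Ndufa4, Ndufa4l2, Ndufa12 and Atpif1 were chosen for their role. Some single-gene values are counted in the summaries and not reported here. The members and lists were chosen with earlier results of these data known. The comparison of the same ages by the authors with Cuffdiff needs alignments and was not run again.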

Additional observations from a re-analysis of the deposited data

How the results depend on the processing

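The median log2 fold change of the subunits stayed between -0.41 and -0.30 in all settings tried, and 30 of 38 complex I genes kept their sign in each of the 16 alternatives. The blocks, the filters and the fit without trend cannot change the fold change of a gene in this design. Only the other settings could have moved it. The number of complex I genes past the threshold (8 as reported) was 0 with the values as deposited, quantile normalization, no filter or no trend, 16 with cyclic loess normalization, 14 with at least 1 FPKM in all 4 samples, and 13 with genes at 0 in any sample left out, a setting chosen after seeing the data. It ranged from 0 to 9 when each sample was left out in turn; without Old 2 or Young 1 it was 0, without Old 1 it was 4. With a sample left out, the spread came from the other age alone. The counts of such fits, here and for all genes below, therefore do not show whether a call holds. The cause of the differences between settings was not tested.

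For all genes the number was 1391 as reported (815 lower and 576 higher), 31 as deposited (13 lower and 18 higher), 307 with quantile normalization, 2530 with cyclic loess, 316 with no filter, 2524 with the filter on all 4 samples and 284 with no trend. It ranged from 1 to 1392 with a sample left out. With the replicate block, which pairs samples of the same number, 0 complex I genes and 45 genes passed. With the crossed replicate block, Old 1 with Young 2 and Old 2 with Young 1, 34 complex I genes and 6745 genes passed.

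The median of the assembly factors ranged from 0.05 to 0.11 with a sample left out. Signs turned for small changes. Under quantile normalization the log2 fold change was 0.00 for Ndufa2, 0.05 for Ndufa3, 0.33 for Ndufa4 and 0.00 for Ndufs7. With a sample left out it ranged from -1.28 to 0.53 for Ndufa4l2, from -0.28 to 0.01 for Ndufa7, from -0.03 to 0.11 for Ndufaf1, from -5.55 to 4.73 for Ndufs7 and from -0.03 to 0.13 for Ndufv3.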

Other observations

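Ndufab1, the mitochondrial acyl carrier protein and a complex I subunit (mm10, chr7:122088043-122101848), had a value in Old 2 and Young 1 only, with 119 and 141 deposited FPKM. Old 2 was thus at 0.844 times Young 1 (-0.25 on the log2 scale), with 1 sample per age and no test. The gene label 1810043H04Rik, an older symbol of the assembly factor Ndufaf8, did not begin with Nduf and was not counted above. It had 40.4 and 39.4 scaled FPKM in the old and 42.4 and 43.6 in the young samples, with a log2 fold change of -0.11 ± 0.06 (limma adjusted p = 0.312).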
